A study of Mus musculus with 18 samples.

Results

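Mouse small intestinal organoids grown from villi were compared with organoids grown from crypts in the same matrix and the same medium. Organoids are three-dimensional cultures of gut epithelium. All cells came from wild-type C57BL/6J mice. The villus-derived group (VIL, 3 libraries) and the crypt-derived group (COL_cWRNE, 3 libraries) were both embedded in collagen type I, a fibrous matrix protein, fed with medium containing 25% cWRNE, given no 5-fluorouracil and harvested on day 6. What cWRNE holds is not given in the sources used here. Villi were scraped with a glass coverslip from the first 3 cm of gut below the pylorus, the outlet of the stomach, were kept on a 70 µm strainer and were plated in 20 µL domes. Crypts were released with EDTA from the whole small intestine, passed a 70 µm strainer and were plated in 30 µL domes. Tissue of origin, gut region, isolation and dome volume therefore cannot be told apart. These 6 libraries were chosen from the 18 of the series by matching matrix and medium. The other 12 were crypt-derived cultures in Matrigel (a basement membrane extract) or collagen without cWRNE, with and without 5-fluorouracil. Of 55414 genes in the deposited table, 16699 had enough counts to be tested. Mice or batches behind each of the 6 libraries are not stated for this comparison, so p-values measure only the spread between these samples.

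Crypts are the pits of the gut lining that hold stem cells, kept dividing by Wnt signalling, and the Paneth cells between them. Villi are the finger-like projections above, covered by mature enterocytes that absorb fat, sugar, amino acids and iron and no longer divide. The core of a villus is connective tissue with macrophages, fibroblasts, smooth muscle and vessels.

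Library totals were 30.3, 33.2 and 29.8 M estimated counts for the crypt-derived replicates 1 to 3 and 27.6, 34.5 and 23.1 M for the villus-derived ones. Gene levels of the crypt-derived libraries ranked alike (Spearman correlation across genes of 0.984 to 0.988). The villus-derived libraries were further apart, at 0.968 for replicates 1 and 2, 0.962 for 2 and 3 and 0.933 for 1 and 3. Replicate 2 of both groups carried Y-linked transcripts and no Xist, and replicates 1 and 3 of both groups carried Xist, so each group held the same mix of sexes. Among the other 12 libraries, replicate 3 of the untreated collagen group held both, with Xist at 177 CPM (counts scaled to library size) and Ddx3y at 6.71 CPM.

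In the comparison of villus-derived with crypt-derived cultures, 949 genes were higher (5.68% of those tested) and 327 were lower (1.96%) in edgeR's quasi-likelihood test, at an adjusted p under 0.05, together 7.64%. The CPM ranges of the groups did not overlap for 27.8% of tested genes, against which any statement below that groups were apart is to be read. An unadjusted p under 0.05 in the same test was found for 3691 of the 16699 genes, in either direction. The alternative test DESeq2 called 2256 of them. Such counts within single lists below are to be read against these. The median log2 fold change over all tested genes was -0.03. The edgeR counts depended on single libraries. The total of 1276 called genes became 2050 without villus-derived replicate 1, 678 without replicate 2 and 1550 without replicate 3. It became 371, 474 and 351 without crypt-derived replicates 1, 2 and 3. To tell epithelial genes from genes of other cells, each gene was classed by its mean over the 12 other crypt-derived libraries. The 3 untreated Matrigel libraries among them also entered the filter, the scaling and the estimate of spread behind each call. A mean of at least 1 CPM counted as detected. Of 13393 detected genes, 570 were higher (4.26%) and 316 lower (2.36%), with a median log2 fold change of -0.05. Of 3306 genes not detected there, 379 were higher (11.5%) and 11 lower (0.333%). Of those 379 genes, 192 had no count at all in the crypt-derived group, so they passed the count filter without it. Genes that enter through the villus-derived group had to be higher there, and the excess of rises in this class is a description only. The class is not clean, since macrophage genes such as Lyz2, Apoe and Ctss passed 1 CPM in crypt-derived cultures too.

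**Figure D1:**
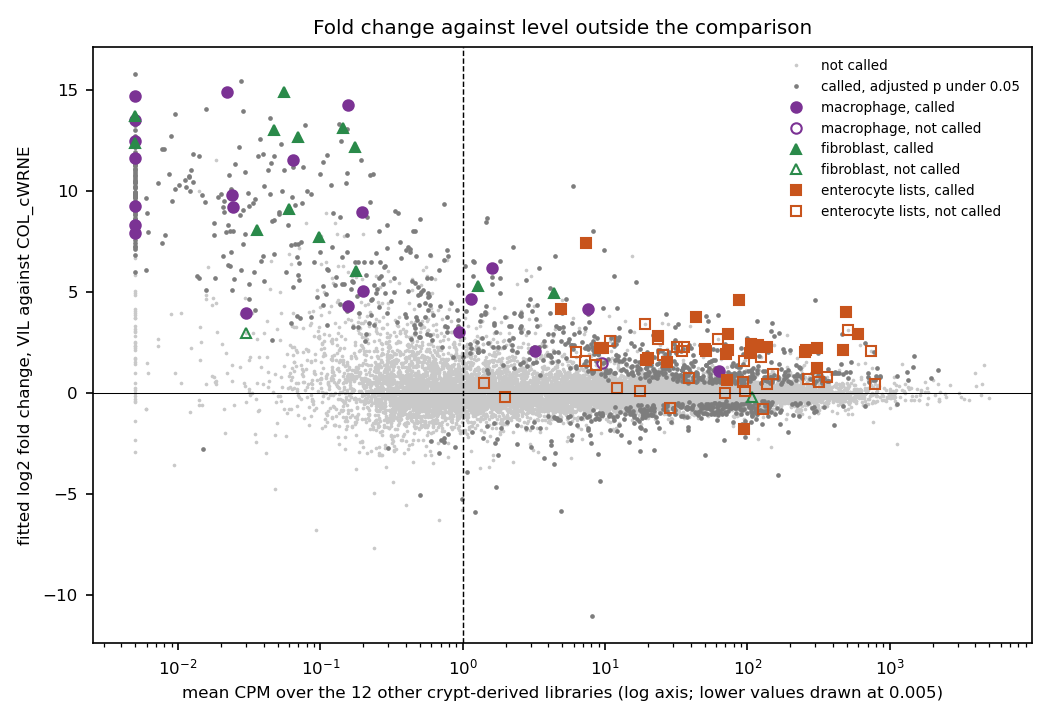
Each point is a tested gene, placed by its mean CPM over the 12 other crypt-derived libraries (log axis) and its fitted log2 fold change of VIL against COL_cWRNE. The dashed line marks 1 CPM. Members of the macrophage and fibroblast lists lie mostly at its left with large fold changes, and members of the 3 enterocyte lists lie at its right.

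The 379 genes and the 570 genes ran through the villus-derived libraries in different orders. Among the 379 not detected elsewhere, replicate 1 had the lowest level of the 3 villus-derived libraries for 335 genes and the highest for 18. Among the 570 detected ones, it had the highest level for 203 genes and the lowest for 229. Over all tested genes of these classes, replicate 1 was lowest for 52.4% of the not detected and 33.2% of the detected genes, and highest for 19.9% and 36.6%. The share of counts on genes of the not detected class was 0.47%, 1.48% and 1.95% in villus-derived replicates 1 to 3, against 0.31% to 0.36% in the crypt-derived group and 0.18% to 0.26% in the other 12 libraries.

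The labels describe all cultures as epithelial cells, and epithelial markers were high in both groups. Of 15 pan-epithelial markers, edgeR called 0, with 3 at an unadjusted p under 0.05 and 2 called higher by DESeq2. Their summed level was 30868, 32687 and 25923 CPM in the crypt-derived replicates and 24853, 28272 and 25038 CPM in the villus-derived ones. Epcam, an epithelial adhesion protein, measured 1883, 1821 and 1882 CPM against 2424, 1771 and 2121 CPM (edgeR adjusted p = 0.478). Vil1, an actin bundler of microvilli, measured 345, 392 and 335 CPM against 561, 469 and 393 CPM (adjusted p = 0.126). Cdh1, the epithelial cadherin, measured 1652, 2067 and 1726 CPM against 1543, 1927 and 1851 CPM (adjusted p = 0.971).

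Macrophage genes were present in the villus-derived cultures. Of 24 listed markers, 23 passed the count filter and 22 rose. Of the tested members, 8 had no count in the crypt-derived group and passed without it, so this count describes the members that passed. Their median fitted log2 fold change was 8.31, or 7.92 with genes at 0 in the crypt-derived group set to their bound, and is read in the same way. C1qa, C1qb and C1qc, the 3 chains of complement C1q that tissue macrophages secrete, had no count in any crypt-derived library. C1qa measured 27.2, 90.5 and 136 CPM in villus-derived replicates 1 to 3, at least 2525-fold higher than the 3 counts that a crypt-derived group at 0 allows. C1qb was at least 3957-fold and C1qc at least 3393-fold higher on the same floor. Adgre1, which encodes the macrophage marker F4/80, was at 0 in all 15 crypt-derived libraries of the series and at 8.83, 36.04 and 28.5 CPM in the villus-derived ones. Spi1, the transcription factor PU.1 that directs myeloid fate, was likewise at 0 in those 15 and at 3.99, 16.2 and 21.3 CPM. Lyz2, the macrophage lysozyme, measured 1.13, 3.00 and 1.39 CPM against 838, 2334 and 3340 CPM, a log2 fold change of 10.21 (SE 0.75, adjusted p = 0.000248). Lyz2 is a near copy of the Paneth cell gene Lyz1, so its reads could have been split between them. In each of the 22 genes, villus-derived replicate 1 was the lowest of its group and still above every crypt-derived library. Between 15 and 23 macrophage genes were called when 1 library was left out, and 15 were called in all 6 such fits. In bulk RNA, fewer cells of a type and less RNA per cell cannot be told apart. Csf1r, the receptor for the macrophage growth factor, lost its call without any crypt-derived library (adjusted p = 0.0796 without replicate 3). Ptprc, the CD45 antigen of all white blood cells, was at 0 against 1.06, 11.3 and 26.7 CPM and lost its call in the same way (adjusted p = 0.0667 without replicate 3). Cd68 did not pass the test (adjusted p = 0.0812), at 57.7, 40.6 and 42.7 against 48.3, 128 and 211 CPM.

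Fibroblast genes followed the same order. Of 24 markers, 15 passed the count filter and 13 of those rose. In the crypt-derived group, 13 of the 24 had no count, 6 of them among the tested, and the other 9 markers were too low to test. As with the macrophage list, the count and the median fitted log2 fold change of 9.07 (9.07 with genes at 0 set to their bound) describe only the members that passed. Replicate 1 was the lowest villus-derived library in each of the 13. Col3a1, a fibrillar collagen chain, was at 0 in the crypt-derived group and at 10.0, 239 and 153 CPM in the villus-derived one, at least 3997-fold higher. Col1a2, a chain of collagen type I, was at 0 against 2.15, 41.1 and 40.9 CPM. Sparc, a matrix glycoprotein, measured 0, 0.0948 and 0 CPM against 11.6, 186 and 307 CPM (edgeR adjusted p = 0.00301). Pdgfra, the receptor that marks villus fibroblasts, was at 0 against 3.32, 36.8 and 76.4 CPM. Fbln1 was the exception, at 107, 79.4 and 108 CPM in the crypt-derived group against 120, 72.1 and 54.5 CPM (adjusted p = 0.643), and it made up nearly all of the list's crypt-derived sum. Between 5 and 19 fibroblast genes were called with 1 library left out, 5 without crypt-derived replicate 1 or 3 and 19 without villus-derived replicate 1. Dcn, Col1a1 and Col5a1 each lost the call without any of the 3 crypt-derived libraries (highest adjusted p = 0.0761, 0.0586 and 0.0747).

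Summed over each list, macrophage markers reached 511, 1462 and 2142 CPM in villus-derived replicates 1 to 3, against 128 to 148 CPM in the crypt-derived group and 37.5 to 121 CPM in the other 12 libraries. Fibroblast markers summed to 185, 1187 and 1294 CPM against 84.1 to 111 and 77.9 to 144 CPM. Smooth muscle and pericyte markers summed to 102, 202 and 201 CPM against 29.2 to 58.1 and 11.8 to 70.7 CPM, and 6 of 9 tested members rose, among them Mylk, the myosin light chain kinase (log2 fold change 1.80, SE 0.17), and Acta2, smooth muscle actin, at 3.21, 4.90 and 3.16 CPM against 8.83, 75.0 and 44.3 CPM. Only 1 of these 6 calls held in every fit with 1 library left out. Of the 9 tested members, 3 had no count in the crypt-derived group and passed the count filter without it. The count of 6 therefore describes only the members that passed. Of 9 tested endothelial markers edgeR called 0, with 3 at an unadjusted p under 0.05 and 1 called higher by DESeq2. Pecam1 measured 1.21, 2.13 and 15.1 CPM in the villus-derived group. T, B and natural killer cell markers were at or near 0 in these 6 libraries: Cd3g, Cd8a, Gzma and Nkg7 had no count, and Cd3e, Cd79a and Ncr1 stayed under 0.35 CPM. Itgax, an integrin of macrophages and dendritic cells, was at 0 against 6.25, 13.5 and 23.0 CPM. Itgax and the mast cell gene Cpa3 (edgeR adjusted p = 0.0211) were the 2 calls among 6 tested markers of other immune cells. Of these 6, 2 had no count in the crypt-derived group and passed without it. Cpa3 lost its call without any crypt-derived library or villus-derived replicate 2. The mast cell genes Mcpt1 and Mcpt2 were not called (adjusted p = 0.156 and 0.066), except without villus-derived replicate 1. The 6 villus-core and immune lists held 44 of the 949 higher genes, 35 of them in the not detected class. These are short marker lists, and genes such as Lyz2 and Apoe lie outside them. The number therefore does not measure the part of other cells in the rise.

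**Figure D2:**
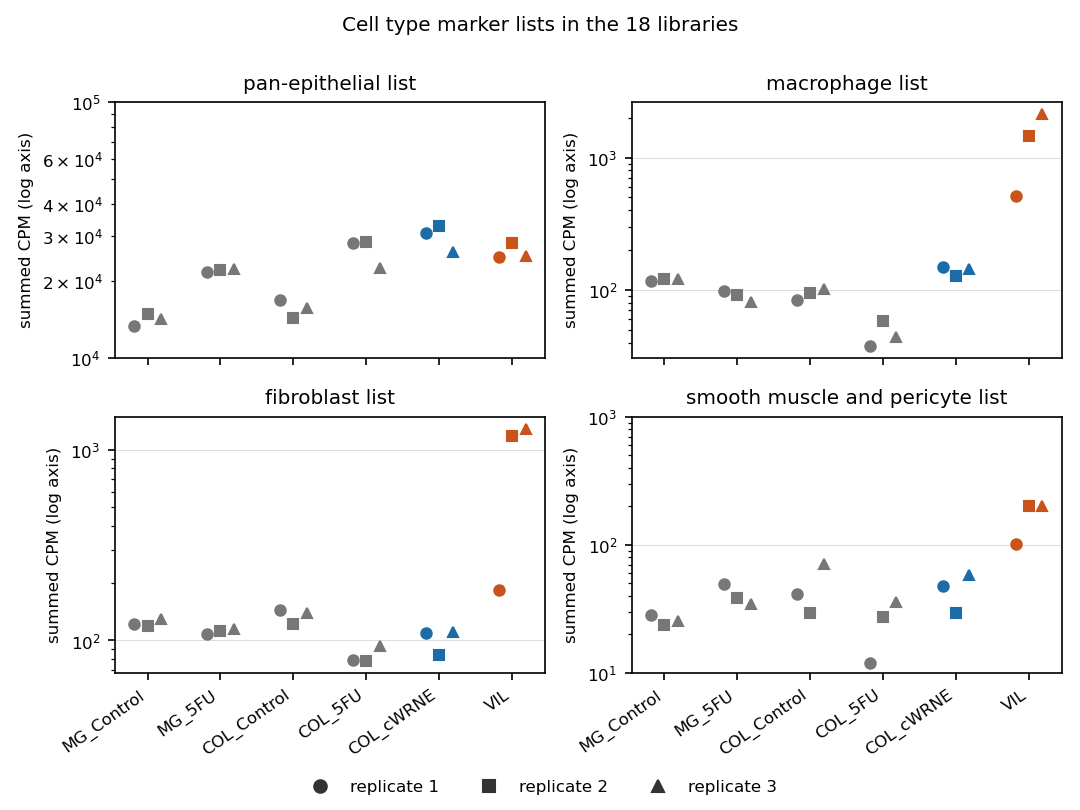
Summed CPM (log axis) of 4 marker lists in the 18 libraries, by group, with replicates as separate symbols. Pan-epithelial sums overlap between VIL and COL_cWRNE, and macrophage, fibroblast and smooth muscle sums are highest in the VIL libraries, with replicate 1 the lowest of the 3.

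Matrix-degrading enzymes rose with these lists. Of 16 tested proteases and inhibitors, 6 rose, and all 6 were matrix metalloproteinases. Of the tested members, 3 had no count in the crypt-derived group and passed the count filter without it. The count of 6 therefore describes only the members that passed. With 1 library left out, 3 were called higher without any crypt-derived library or villus-derived replicate 2, and 9 without villus-derived replicate 1. The calls of Mmp12 and Mmp13 held in all 6 fits. Mmp13, a collagenase, was at 0 against 39.3, 115 and 417 CPM, at least 5683-fold higher. Mmp12, the macrophage elastase, measured 0, 0.948 and 0 CPM against 102, 347 and 446 CPM (log2 fold change 9.82, SE 1.15, adjusted p = 0.00420). Mmp9, a gelatinase, was at 0 against 13.6, 145 and 572 CPM, at least 7265-fold higher, though its call was lost without any crypt-derived library or villus-derived replicate 2 (highest adjusted p = 0.0856). In all 6, villus-derived replicate 1 was the lowest of its group, as it was for the macrophage and fibroblast sums, and their part in the result was not tested. The membrane-bound Mmp14 measured 242, 334 and 199 CPM against 195, 282 and 395 CPM (adjusted p = 0.728).

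Among epithelial programs, genes of the absorptive enterocyte were higher. Of 22 tested genes for fat handling, 10 rose and 0 fell (median log2 fold change 2.08). Of 21 brush border genes, 9 rose and 1 fell (median 1.61). Of 16 nutrient transporters, 6 rose and 0 fell (median 1.93). The 3 lists hold genes that crypt-derived cultures express, with every tested member in the detected class. Summed levels were highest in villus-derived replicate 1, which had the lowest macrophage and fibroblast sums of its group. Single genes did not all follow the sums. Of the 10 fat handling genes that rose, replicate 1 was the highest villus-derived library in 5 and the lowest in 4. It was highest in 7 of 9 brush border genes and 4 of 6 transporters that rose, and lowest in 1 of each. Fat handling genes summed to 3241, 2683 and 2404 CPM in the villus-derived replicates against 1278 to 1707 CPM in the crypt-derived group, and brush border genes to 3476, 2205 and 1791 CPM against 762 to 810 CPM. Transporters summed to 2179, 1383 and 1107 CPM against 772 to 859 CPM. The other 12 libraries spanned 1187 to 12466 CPM for fat handling, 671 to 5620 CPM for brush border and 795 to 1894 CPM for transporters. Among them, untreated crypt cultures in Matrigel held 3880 to 4145, 2135 to 2655 and 808 to 981 CPM in that order. High sums were thus not particular to villus-derived cultures.

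Promoters of 4 of the called members are shown because they share a short run of letters. CAAAGNNCA (N is any base), a form of the site that HNF4 factors of the gut and liver bind, was searched on both strands of the 250 bases before each gene start. It was chosen after the fold changes were seen. The windows are RefSeq promoter sequences on GRCm38.p6, written 5′ to 3′ on the strand of the gene, with the match in capitals.
Fabp2: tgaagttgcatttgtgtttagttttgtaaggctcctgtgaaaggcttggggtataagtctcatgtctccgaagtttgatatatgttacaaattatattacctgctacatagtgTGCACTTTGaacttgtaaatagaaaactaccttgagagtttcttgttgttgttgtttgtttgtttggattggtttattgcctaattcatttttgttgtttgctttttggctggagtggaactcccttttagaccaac
Creb3l3: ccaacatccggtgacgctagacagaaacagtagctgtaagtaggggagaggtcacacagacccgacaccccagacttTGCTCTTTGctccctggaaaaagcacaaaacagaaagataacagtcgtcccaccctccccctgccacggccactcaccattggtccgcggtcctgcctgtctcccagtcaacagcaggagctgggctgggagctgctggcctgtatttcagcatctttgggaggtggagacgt
Apoa4: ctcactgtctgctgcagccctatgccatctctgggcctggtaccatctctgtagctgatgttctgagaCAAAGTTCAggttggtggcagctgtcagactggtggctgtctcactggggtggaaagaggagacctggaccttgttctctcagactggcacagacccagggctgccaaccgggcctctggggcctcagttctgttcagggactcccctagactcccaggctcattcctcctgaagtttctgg
Alpi: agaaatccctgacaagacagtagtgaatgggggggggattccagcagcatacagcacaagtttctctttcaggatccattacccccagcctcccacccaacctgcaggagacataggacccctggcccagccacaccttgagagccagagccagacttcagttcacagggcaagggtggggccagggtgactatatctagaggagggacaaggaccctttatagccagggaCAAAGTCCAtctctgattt
The Fabp2 window is chr3:122894822-122895071 on the plus strand, that of Creb3l3 is chr10:81092592-81092841 on the minus strand, that of Apoa4 is chr9:46240594-46240843 on the plus strand and that of Alpi is chr1:87101607-87101856 on the minus strand. In Fabp2 and Creb3l3 the match lies on the opposite strand of the gene. Of 32851 promoter windows, 5.49% held the letters, as did 5.84% of the tested genes with a window. They stood in 8 of the 24 members called higher in the brush border, fat handling, transporter and villus tip lists that had a window (33.3%). Among all genes called higher that had a window, they stood in 9.58% of the detected and 11.1% of the not detected ones. A match is a description of these letters and not a site shown to be used.

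Genes of fat uptake and re-assembly came first in size. Cd36, a fatty acid transporter, measured 0.317, 0.284 and 0.170 CPM in crypt-derived replicates 1 to 3 and 33.3, 35.9 and 62.8 CPM in villus-derived ones, a log2 fold change of 7.42 (SE 0.42, edgeR adjusted p = 0.000166). Cd36 is also made by macrophages, whose markers were highest in the same replicate 3, and their part in the result was not tested. Fabp2, the intestinal fatty acid binding protein, measured 9.70, 9.70 and 7.71 CPM against 48.7, 40.9 and 32.7 CPM (log2 fold change 2.19, SE 0.18, adjusted p = 0.000411). Its villus-derived values stayed far under the 301 CPM mean of untreated crypt cultures in Matrigel. Mogat2, which joins fatty acids to monoglycerides in enterocytes, measured 27.5, 20.7 and 19.8 CPM against 104, 84.9 and 69.0 CPM (log2 fold change 1.94). Dgat2, which completes the triglyceride, measured 61.6, 65.9 and 57.4 CPM against 163, 243 and 277 CPM (log2 fold change 1.90). The groups did not overlap for any of the 4, and each call held whichever library was left out. The same was true of Creb3l3, a transcription factor of fat-fed enterocytes, at 0.741, 2.15 and 0.577 CPM against 18.1, 15.4 and 13.7 CPM. Apoa4, an apolipoprotein of the villus, measured 1.62, 1.36 and 0.883 CPM against 45.9, 11.9 and 4.09 CPM (log2 fold change 4.02, SE 0.77), with its call lost without any crypt-derived library (highest adjusted p = 0.0791). Fabp1 did not pass the test (adjusted p = 0.0754), with 279, 79.1 and 8.18 CPM in the villus-derived replicates against 13.7, 17.9 and 11.7 CPM. Here replicate 3 fell below the crypt-derived values while replicate 1 was far above them. Without replicate 3, 17 fat handling genes were called, and 6 without crypt-derived replicate 1 or 3.

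Brush border genes, which build and arm the absorptive surface, varied in the same way. Cdhr5, a cadherin that links microvilli, measured 100.2, 103 and 86.0 CPM against 421, 411 and 324 CPM (log2 fold change 2.01, SE 0.15, adjusted p = 0.000248). Mep1b, a peptidase of the brush border, measured 7.76, 8.06 and 11.2 CPM against 61.4, 50.1 and 29.6 CPM (log2 fold change 2.40). Both calls held in the 6 fits with 1 library left out, as did that of Enpp3, a surface nucleotide hydrolase, at 0.600, 1.26 and 1.02 CPM against 11.2, 11.1 and 27.6 CPM. Alpi, the intestinal alkaline phosphatase, measured 85.8, 119 and 110 CPM against 1634, 528 and 193 CPM (log2 fold change 2.92, SE 0.62), and its call was lost without any crypt-derived library (highest adjusted p = 0.104). In 7 of the 9 called genes, replicate 1 was the highest villus-derived library. Sis, the sucrase-isomaltase, spread from 62.5 to 0.533 CPM within the villus-derived group and was not called (adjusted p = 0.404). Dpp4, a further brush border peptidase, fell, from 29.9, 28.0 and 42.7 CPM to 9.54, 15.6 and 3.07 CPM (log2 fold change -1.81, SE 0.44). That call was lost without any crypt-derived library (highest adjusted p = 0.137). With 1 library left out, 4 brush border genes were called higher without crypt-derived replicate 1 or 3, 5 without crypt-derived replicate 2 and 11 without villus-derived replicate 3.

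Among transporters, Slc26a6, an anion exchanger, measured 26.3, 26.8 and 24.0 CPM against 164, 111 and 121 CPM (log2 fold change 2.38, SE 0.18, adjusted p = 0.000290). Slc7a9, which takes up cystine, measured 3.10, 4.96 and 3.06 CPM against 34.98, 28.5 and 14.4 CPM (log2 fold change 2.82). Groups were apart in both, and both calls held in every fit with 1 library left out. Slc5a1, the sodium-glucose transporter, was not called (adjusted p = 0.641), at 326, 93.3 and 21.8 CPM in the villus-derived replicates around the crypt-derived 68.9 to 111 CPM. Slc15a1, Slc2a2 and Slc2a5, for peptides and sugars, were not called either. Between 2 and 11 transporters were called with 1 library left out, 2 without crypt-derived replicate 1 or 3 and 4 without crypt-derived or villus-derived replicate 2, and 11 without villus-derived replicate 3.

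Iron genes were among those that rose. Slc40a1, ferroportin, which exports iron from duodenal enterocytes into the blood and is also made by macrophages, measured 229, 238 and 261 CPM in the crypt-derived replicates and 1656, 1350 and 952 CPM in the villus-derived ones. Its log2 fold change was 2.46 (SE 0.20, edgeR adjusted p = 0.000411), and the other 12 libraries lay between 65.6 and 194 CPM. Its order, with replicate 1 highest, was the opposite of the macrophage sum, and the part of macrophages in the result was not tested. Cybrd1, the ferric reductase of the duodenal surface, measured 225, 218 and 272 CPM against 730, 1098 and 841 CPM (log2 fold change 1.92, SE 0.32). Fth1, the ferritin heavy chain that stores iron, measured 1199, 895 and 923 CPM against 3479, 3180 and 3814 CPM (log2 fold change 1.81, SE 0.17). No villus-derived value overlapped a crypt-derived one in these 3 genes, and all 3 calls held with any library left out. Heph, the oxidase that works with ferroportin, measured 78.7, 90.4 and 93.4 CPM against 141, 142 and 206 CPM (log2 fold change 0.92), a call lost without any crypt-derived library (highest adjusted p = 0.105). The ferritin light chain Ftl1 and the transferrin receptor Tfrc were not called (adjusted p = 0.380 and 0.487).

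In the list of retinoid, iron and xenobiotic genes, 10 of 24 tested rose and 0 fell (median log2 fold change 1.00). Several of those that rose encode enzymes that oxidise or conjugate drugs. Of the retinoid enzymes, Aldh1a1 and Bco1 were not called (adjusted p = 0.0745 and 0.348). Aldh1a2, a further one, rose (log2 fold change 6.11, edgeR adjusted p = 0.0297). That call was lost without any crypt-derived library or villus-derived replicate 2 (highest adjusted p = 0.126). Cyp2c65, a cytochrome P450, measured 28.4, 35.9 and 32.2 CPM against 342, 277 and 117 CPM, and Cyp2c66 measured 4.44, 8.97 and 5.64 CPM against 146, 94.4 and 29.5 CPM. These P450 genes are near copies, and reads may be shared among them. Ugt1a1, which conjugates bilirubin, measured 26.7, 23.1 and 36.4 CPM against 178, 119 and 98.2 CPM (log2 fold change 2.22, SE 0.25). Rbp2, the retinol binding protein of enterocytes, measured 4.83, 6.10 and 3.70 CPM against 22.6, 31.1 and 8.98 CPM, and lost its call without crypt-derived replicate 1 or 3 (highest adjusted p = 0.0623). Between 5 and 11 genes of this list were called with 1 library left out, 5 without crypt-derived replicate 1 or 3 and 6 without crypt-derived or villus-derived replicate 2.

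Markers of gut region were mixed. Of 12 tested genes typical of the proximal small intestine, 4 rose, and they were Slc40a1, Cybrd1, Heph and Nr1h4, the bile acid receptor. Gata4, the transcription factor of the proximal small intestine, measured 161, 129 and 150.5 CPM against 159, 125 and 102 CPM (adjusted p = 0.615), and the duodenal factor Pdx1 measured 19.7, 17.2 and 18.4 CPM against 17.6, 21.8 and 15.9 CPM (adjusted p = 0.970). Of 8 tested distal genes, 3 rose. Muc3, a membrane mucin, measured 16.6, 27.0 and 22.1 CPM against 448, 259 and 253 CPM (log2 fold change 3.89, SE 0.44), and Cyp2c55 measured 74.6, 63.1 and 82.0 CPM against 984, 597 and 309.9 CPM (log2 fold change 3.12). Fabp6, the ileal bile acid binding protein, was too low to test, at 0 in all 3 villus-derived libraries and at most 0.102 CPM in the crypt-derived group. Of 6 tested stomach and Brunner gland genes, 2 rose and 1 fell (Gkn3). Dmbt1, a secreted scavenger protein, rose from 67.8, 100.2 and 70.3 CPM to 477, 264 and 532 CPM. Tff1, a gastric trefoil peptide, rose from 2.12, 1.30 and 1.46 CPM to 3.99, 85.4 and 14.5 CPM, highest in replicate 2, and lost its call without that replicate (adjusted p = 0.0655) or any crypt-derived one (highest 0.114). Villus-derived replicate 2 alone held Muc5ac, a stomach mucin, above 1 CPM (4.44 CPM) and Tff2 above 1 CPM (18.4 CPM), both too low elsewhere to test.

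Markers of the villus tip, the oldest cells before shedding, were higher for 6 of 13 tested genes (median log2 fold change 1.38). With 1 library left out, 2 were called without crypt-derived replicate 1 or 3, 3 without crypt-derived replicate 2 and 5 or 6 otherwise, and the calls of Creb3l3 and Krt20 held in all 6 fits. Krt20, a keratin of differentiated surface cells, measured 75.7, 75.9 and 60.5 CPM against 218, 434 and 1102 CPM (log2 fold change 3.07, SE 0.49, edgeR adjusted p = 0.00755). Its call held in all 6 fits with 1 library left out. Replicate 3 was the highest here, unlike in most brush border genes. Ada, adenosine deaminase, measured 22.8, 21.6 and 18.0 CPM against 24.2, 52.6 and 83.7 CPM, and its call was lost in 5 of those 6 fits (highest adjusted p = 0.161). Nt5e, which makes adenosine, measured 4.89, 54.9 and 128 CPM in the villus-derived replicates against 15.8 to 31.0 CPM and was not called (adjusted p = 0.401). Genes of surface defence were higher for 7 of 13 tested (median 1.45), but none of the 7 calls held in every fit with 1 library left out. Of the 13, 1 had no count in the crypt-derived group and passed the count filter without it. Duoxa2, a partner of the peroxide-making oxidase Duox2, measured 38.4, 26.7 and 27.5 CPM against 58.9, 181 and 227 CPM (log2 fold change 2.35), and its call was lost without crypt-derived replicate 2 or 3 (adjusted p = 0.0529 and 0.0586).

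**Figure D3:**
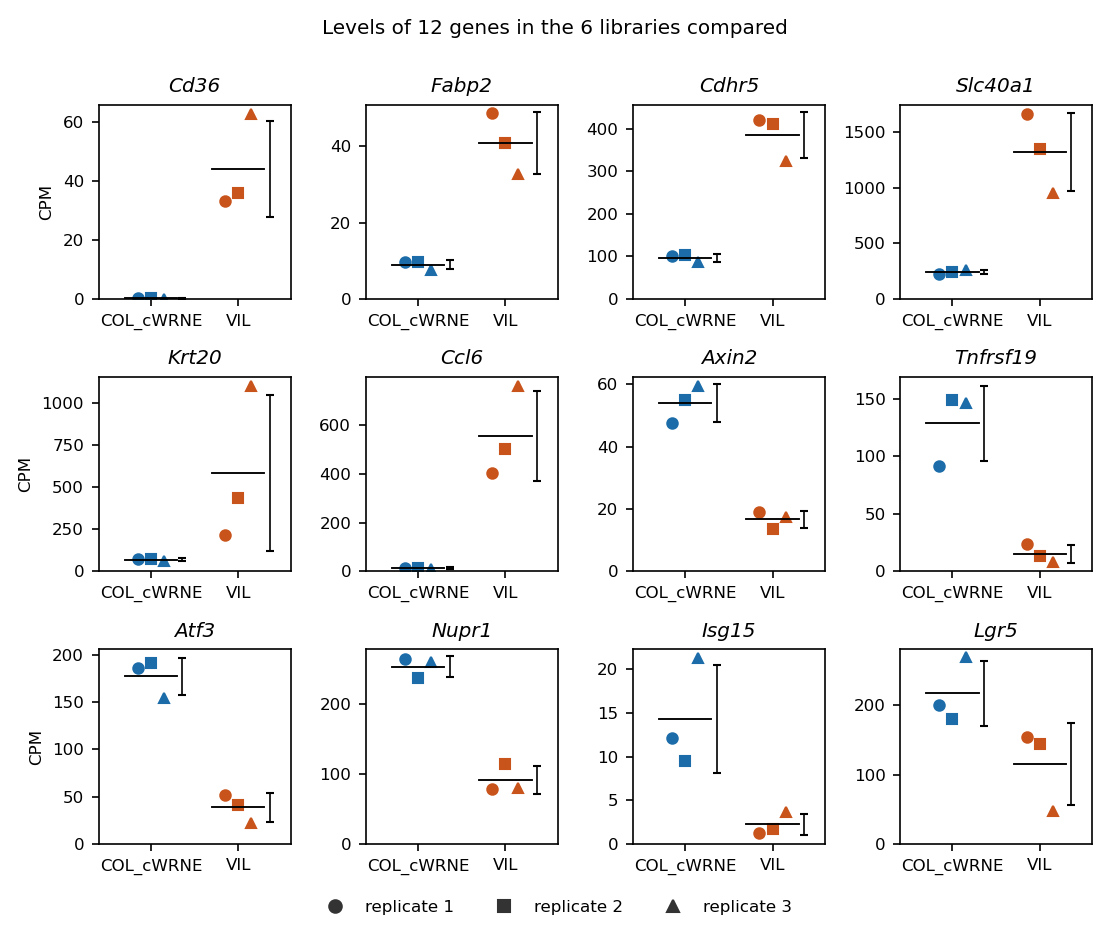
CPM (linear axis from 0) of 12 genes in the 3 COL_cWRNE and 3 VIL libraries, with the group mean as a line and the SD as a bar (n = 3). The groups do not overlap in any of the 12 genes, with VIL higher in Cd36, Fabp2, Cdhr5, Slc40a1, Krt20 and Ccl6 and lower in the rest, of which Lgr5 was not called.

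Secretory cell types differed from one another. Of 15 goblet cell genes, 5 rose (median log2 fold change 1.09). Muc2, the main mucin of goblet cells, measured 18.9, 19.1 and 13.7 CPM against 244, 111 and 28.0 CPM (log2 fold change 2.90, SE 0.60), and lost its call without any crypt-derived library (highest adjusted p = 0.0992). Ccl6 gave the largest fold change of the list, from 16.2, 12.8 and 8.90 CPM to 402, 504 and 759 CPM (log2 fold change 5.48, SE 0.33, adjusted p = 0.000166). Ccl6 is a chemokine of macrophages as well, and its order matched that of the macrophage sum, whose part in the result was not tested. Atoh1, the factor that sets secretory fate, was not called (adjusted p = 0.670). Between 2 and 9 goblet genes were called with 1 library left out, 2 without any single crypt-derived library and 9 without villus-derived replicate 3.

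Paneth cell genes showed the widest spread within the villus-derived group. Their sum was 14735, 5858 and 1487 CPM in replicates 1 to 3, against 3987 to 6448 CPM in the crypt-derived group. Lyz1, the Paneth lysozyme, measured 3993, 1193 and 315 CPM against 1017, 561 and 539 CPM (adjusted p = 0.278). Replicate 1 was above and replicate 3 below all crypt-derived values. Of 18 tested members, Pnliprp2 rose and Nupr1 fell. Without villus-derived replicate 3, 6 members rose, and without replicate 2 or any crypt-derived library, 0 rose. The defensin genes among them are near copies whose reads may be shared. Of 21 enteroendocrine genes, 2 fell, Nts and Gcg, both at most 6.38 CPM, and neither call held with 1 library left out in every fit (highest adjusted p = 0.143 and 0.133). Chga was not called (adjusted p = 0.878) and measured 38.9, 15.3 and 0.756 CPM in the villus-derived replicates. Of 14 tested tuft cell genes, 5 rose. Among those, Hpgds, Alox5ap and Ptgs1 are genes that macrophages also use, and replicate 1 was the lowest villus-derived library for each, while their part in the result was not tested. The tuft factor Pou2f3 was not called (adjusted p = 0.992), nor was Trpm5 (adjusted p = 0.370). Dclk1 measured 2.5, 3.29 and 3.06 CPM against 12.2, 26.5 and 3.69 CPM, and none of the 5 tuft calls held in all 6 fits (highest adjusted p for Dclk1 = 0.15).

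Genes of the crypt stem cell and of Wnt signalling were lower for a minority of members, against 1.96% of all tested genes. Of 20 stem cell genes, 6 fell and 0 rose (median log2 fold change -0.88). Of 18 tested Wnt target genes, 6 fell and 0 rose (median -0.74). Axin2, a feedback inhibitor that tracks Wnt activity and sits in both lists, measured 47.5, 54.9 and 59.4 CPM in the crypt-derived replicates and 19.0, 13.5 and 17.4 CPM in the villus-derived ones (log2 fold change -1.68, SE 0.17, edgeR adjusted p = 0.00138). Tnfrsf19, also called Troy, a receptor of stem cells, measured 91.3, 149 and 146 CPM against 23.7, 13.8 and 7.91 CPM (log2 fold change -3.07, SE 0.38, adjusted p = 0.00269). The groups were apart in both genes, and these were the stem cell calls that held with any library left out. Myc, a growth regulator, measured 309, 251 and 299.6 CPM against 191, 173 and 152 CPM, and Sox4 measured 441, 509.6 and 361 CPM against 249.9, 232 and 241 CPM. Without crypt-derived replicate 1 both lost the call (adjusted p = 0.0786 for Myc and 0.0512 for Sox4), and Myc also lost it without replicate 3 (0.0747). Znrf3, Ascl2, Tcf7 and Nkd1, further members of these lists, fell but lost the call in 4 of the 6 fits each (highest adjusted p = 0.109, 0.175, 0.125 and 0.155). Ascl2 and Znrf3 are in the stem cell list.

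Of the stem cell list, Lgr5, Olfm4 and Rnf43 were not called. Lgr5, an R-spondin receptor, measured 201, 181 and 269 CPM against 155, 145 and 47.7 CPM (adjusted p = 0.213), so the groups did not overlap but replicate 3 lay far under the others. Olfm4 measured 151, 52.5 and 139.7 CPM against 44.1, 13.4 and 0.178 CPM (adjusted p = 0.192), but was called lower without villus-derived replicate 1 (adjusted p = 0.0347). Rnf43 measured 187, 206 and 223 CPM against 204, 165 and 184 CPM (adjusted p = 0.594). From 2 to 9 stem cell genes were called lower with 1 library left out, 2 without crypt-derived replicate 1, 3 without crypt-derived replicate 3 or villus-derived replicate 2, and 9 without villus-derived replicate 1. For Wnt targets the range was 1 to 7, with 1 without crypt-derived replicate 1 or 3, 2 without crypt-derived replicate 2 and 3 without villus-derived replicate 2.

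Few cell division genes were called lower, though a larger share than the 2.36% of all detected genes in the same fit. How many were called depended on each library. Mitotic (G2/M) genes summed to 2579, 2132 and 2859 CPM in the crypt-derived replicates and to 1593, 1609 and 559.6 CPM in the villus-derived ones. Of 22 such genes, 3 fell (Ttk, Hmmr and Bub1), with a median log2 fold change of -0.96, and all 22 had an unadjusted p under 0.05 with a lower level. Without replicate 3, 15 were called lower, without replicate 1, 8, without replicate 2, 1, and without any single crypt-derived library, 0. DNA replication (S phase) genes summed to 2416, 2258 and 2559 CPM against 1825, 1822 and 752 CPM, and 2 of 24 fell, E2f1 and Gins1 (median -0.74). Without replicate 3, 9 were called lower, without replicate 1, 5, without replicate 2, 1, and without any single crypt-derived library, 0. Mki67, a marker of dividing cells, measured 95.9, 80.8 and 129.7 CPM against 66.8, 77.1 and 27.7 CPM (adjusted p = 0.167).

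Stress response genes of the amino acid and unfolded protein pathways included 3 that fell of 16 tested (median log2 fold change -0.47). With 1 library left out, 1 was called lower without any crypt-derived library, 3 without villus-derived replicate 2, 6 without replicate 1 and 7 without replicate 3. Atf3, an early stress transcription factor, measured 186, 191 and 155 CPM against 52.1, 41.1 and 22.5 CPM (log2 fold change -2.18, SE 0.31, adjusted p = 0.00458), and its call held with any library left out. Trib3 and Chac1, targets of ATF4, fell as well and lost their calls without any crypt-derived library (highest adjusted p = 0.0887 and 0.110). Nupr1, a stress-induced nuclear protein listed with the Paneth markers, measured 264, 237 and 260.3 CPM against 78.6, 114 and 79.9 CPM (log2 fold change -1.46, SE 0.18, adjusted p = 0.00268). That call held with any library left out. Hspa5 and Xbp1, of the unfolded protein response itself, were not called (adjusted p = 0.200 and 0.974).

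Interferon response genes were lower in the villus-derived cultures for 5 of 19 tested members, and 0 rose (median log2 fold change -1.09). Isg15, a ubiquitin-like antiviral protein, measured 12.2, 9.51 and 21.3 CPM in the crypt-derived replicates against 1.29, 1.72 and 3.64 CPM (log2 fold change -2.67, SE 0.50, edgeR adjusted p = 0.0141). Rsad2, the antiviral enzyme viperin, measured 14.5, 15.4 and 24.6 CPM against 3.36, 1.78 and 8.09 CPM (log2 fold change -2.02, SE 0.52). The groups were apart in both genes, with crypt-derived replicate 3 the highest library in each. The other 12 libraries held Isg15 at 0.217 to 1.99 CPM, so the villus-derived values lay near them and the crypt-derived ones above. Summed over the list, the crypt-derived group held 646, 519 and 908 CPM, the villus-derived group 502, 430.1 and 473 CPM and the other 12 libraries 188 to 613 CPM. None of the 5 calls held in all 6 fits: Isg15 lost it without crypt-derived replicate 1 or 3 or villus-derived replicate 2 (highest adjusted p = 0.0747), and Oas1a in all 6 (0.146). No member was called without crypt-derived replicate 1 or 3, 1 without villus-derived replicate 2, 2 without crypt-derived replicate 2 or villus-derived replicate 1, and 6 without villus-derived replicate 3.

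The promoters of Isg15 and Rsad2 are shown because a pair of GAAA blocks, the core of the element that interferon-activated factors bind, stands in each. The motif GAAA, 2 bases of any kind, then GAAA was searched on both strands in the same way, also after the values were seen, and matches are in capitals.
Isg15: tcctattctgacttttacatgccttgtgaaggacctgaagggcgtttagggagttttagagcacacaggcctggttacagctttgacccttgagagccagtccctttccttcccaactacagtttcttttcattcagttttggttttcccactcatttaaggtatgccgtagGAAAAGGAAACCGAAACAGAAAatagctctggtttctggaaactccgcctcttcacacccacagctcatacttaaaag
Rsad2: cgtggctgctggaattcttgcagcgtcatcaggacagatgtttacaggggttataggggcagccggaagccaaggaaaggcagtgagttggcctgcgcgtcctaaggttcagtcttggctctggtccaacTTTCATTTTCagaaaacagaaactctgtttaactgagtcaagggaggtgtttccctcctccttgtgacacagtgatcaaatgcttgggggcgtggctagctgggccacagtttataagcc
The Isg15 window is chr4:156200819-156201068 and the Rsad2 window chr12:26456453-26456702, both on the minus strand of GRCm38.p6 and from RefSeq. Isg15 held 3 overlapping matches, and in Rsad2 the match lies on the opposite strand of the gene. Of 32851 windows, 2.98% held the letters, as did 3.18% of tested genes with a window, and 3 of the 3 interferon genes called lower that had a window. Among all genes called lower that had a window, they stood in 3.43% of the detected ones. Of the not detected ones called lower, 2 of 8 held them (25%), and these were Isg15 and Rsad2. For genes called higher the share was 4.44% of the detected and 8.02% of the not detected ones.

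Few markers of fetal-like or regenerating epithelium were called. Of 30 tested, 2 rose and 1 fell (median log2 fold change -0.21). Clu, a marker of revival stem cells, measured 4181, 5846 and 2966 CPM against 2969, 6168 and 5372 CPM (adjusted p = 0.779), Ly6a (Sca-1) measured 2364, 2008 and 1797 CPM against 644, 1472 and 1663 CPM (adjusted p = 0.315), and Anxa1 measured 1404, 1614 and 1061 CPM against 528, 769 and 699 CPM (adjusted p = 0.0724). Gja1, the gap junction protein connexin 43, rose from 0.353, 0.442 and 0.441 CPM to 17.7, 68.5 and 95.8 CPM (log2 fold change 7.2, SE 0.98, adjusted p = 0.00399). Gja1 is also a gene of fibroblasts and smooth muscle, and its order in the villus-derived replicates was that of the macrophage sum, with the part of other cells not tested. Ly6c1 fell from 356, 383 and 244 CPM to 20.5, 57.7 and 59.2 CPM (log2 fold change -2.82, SE 0.49), and it is a near copy of Ly6c2. Both calls held with any library left out, and 6 members of the list were called lower without villus-derived replicate 3. Of 19 tested targets of YAP, the sensor of stretch and matrix stiffness, 1 rose and 2 fell (median -0.10). Their sum was 1206, 2672 and 4055 CPM in villus-derived replicates 1 to 3 against 3257 to 4242 CPM. Ccn1 fell from 475, 429.7 and 371 CPM to 99.1, 205 and 257 CPM, and Ccn2 was not called (adjusted p = 0.250). The call of Ccn1 was lost in 4 of 6 fits (highest adjusted p = 0.170), and 0 YAP targets were called lower without crypt-derived replicate 1 or 2.

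Growth factor pathways changed in few members. Of 14 tested BMP pathway genes, 4 rose, the inhibitors of differentiation Id1 and Id3, the inhibitory Smad6 and the ligand Bmp4, and 0 fell. Id1 measured 38.9, 29.6 and 30.3 CPM against 54.8, 56.7 and 72.4 CPM (log2 fold change 0.92, SE 0.20). Bmp4, a ligand of villus fibroblasts, measured 0.0353, 0.948 and 0.441 CPM against 3.91, 29.9 and 40.0 CPM, in the order of the fibroblast sum, whose part in the result was not tested. All 4 calls were lost without any crypt-derived library or villus-derived replicate 2 (highest adjusted p for Id1 = 0.101 and for Bmp4 = 0.115). Of 11 tested Wnt ligands, Wnt4 rose from 0.600, 1.39 and 0.408 CPM to 7.78, 27.2 and 11.2 CPM, a call that held with any library left out. Wnt5a rose from 0.564, 1.42 and 0.374 CPM to 3.75, 29.0 and 31.1 CPM and lost its call in 4 of 6 fits (highest adjusted p = 0.106). Wnt3, the Paneth cell ligand, was not called (adjusted p = 0.990). The R-spondins Rspo1, Rspo2 and Rspo3 had at most 0.0889 CPM in these 6 libraries. Of 14 Notch genes 1 rose and 1 fell, and of 12 EGF family genes 1 rose, with no call that held in all 6 fits. Of 19 tested integrins and laminins, Itgb5, Itga1 and Lama4 rose, none of them in all 6 fits (highest adjusted p = 0.0734, 0.123 and 0.174). Lama4 had no count in villus-derived replicate 1, against 11.9 and 9.96 CPM in the others.

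Metabolic and damage programs showed few calls. Of 20 cholesterol synthesis genes edgeR called 0, with 3 at an unadjusted p under 0.05 and 0 called by DESeq2, and 11 were called lower without villus-derived replicate 1. Of 20 glycolysis and hypoxia genes edgeR and DESeq2 called 0, and 0 had an unadjusted p under 0.05. Of 24 p53 targets, 2 rose (Fas and Eda2r), neither in all 6 fits, and Cdkn1a measured 411, 350.4 and 303 CPM against 509, 439 and 675 CPM (adjusted p = 0.194). Of 7 tested MHC class II genes 2 rose (H2-Eb1 and H2-DMb1), against 5.68% of all tested genes. Of 16 tested inflammatory genes 1 rose (Icam1) and 1 fell (Tnfaip3). None of the calls in these lists held in all 6 fits. Without villus-derived replicate 1, 5 MHC class II genes and 7 inflammatory genes were called higher. Arg1, an arginase of proximal enterocytes and of macrophages, rose from 0.705, 2.40 and 1.26 CPM to 10.8, 141 and 134 CPM (log2 fold change 6.04, SE 0.90, adjusted p = 0.00596), with replicate 1 the lowest villus-derived library.

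**Figure D4:**
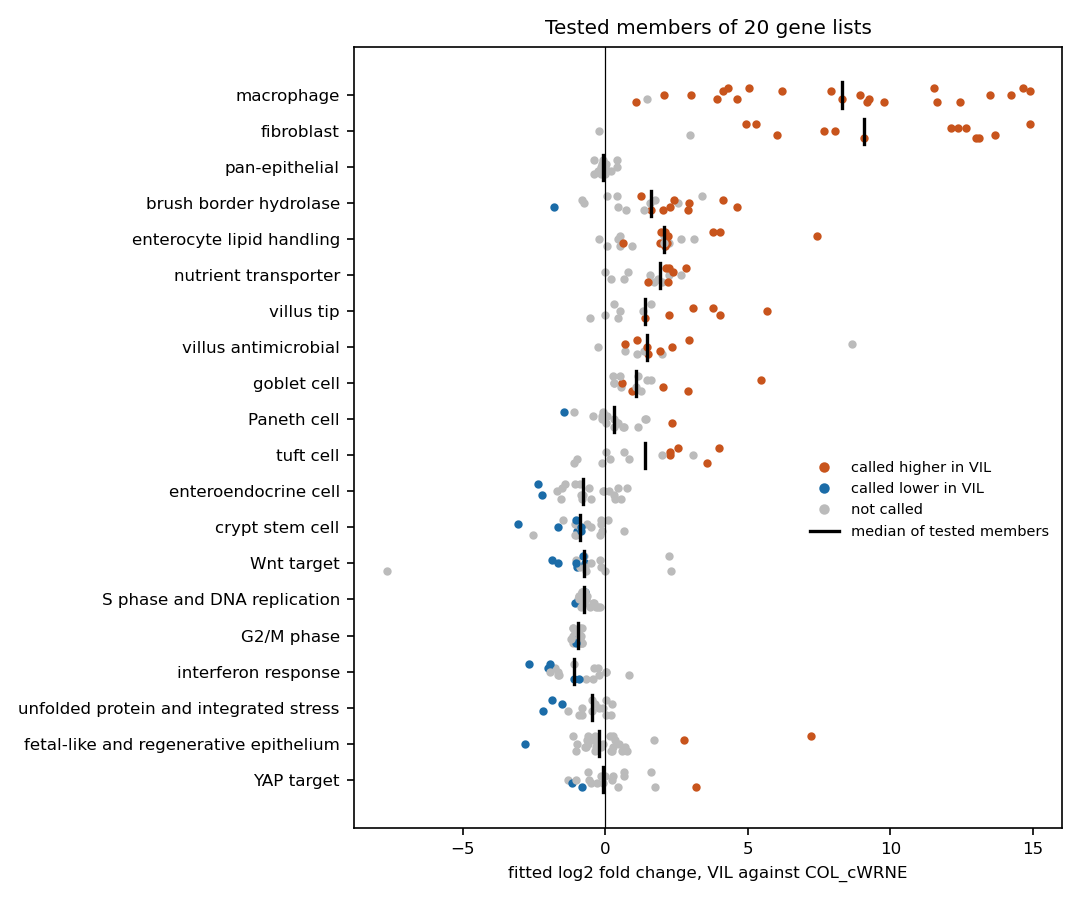
Fitted log2 fold change of VIL against COL_cWRNE for the tested members of 20 gene lists, 1 point per gene, with the list median as a bar. Macrophage and fibroblast members lie furthest to the right (medians 8.31 and 9.07), enterocyte lists lie right of 0, and stem cell, Wnt target, cell division and interferon lists lie left of 0 with few members called.

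With the other-cell marker lists and unnamed gene models left out, the detected genes with the largest rise were Lyz2, Apoe, Ltf, Trf, Clca4a, Otulinl and Lrrc19, beside Cd36, Gja1, Arg1, Tgfbi and Ccl6. Apoe, the apolipoprotein of macrophages, measured 1.16, 1.04 and 2.31 CPM against 49.8, 524 and 1232 CPM. Trf, transferrin, measured 3.10, 1.45 and 2.21 CPM against 25.3, 194 and 666 CPM. In both, the order was that of the macrophage sum, whose part in the result was not tested. Lrrc19, a leucine-rich repeat receptor of gut epithelium, had the opposite order, at 0.459, 0.126 and 0.0679 CPM against 18.5, 10.7 and 6.67 CPM (log2 fold change 5.79, SE 0.66, adjusted p = 0.00217). Ltf, lactoferrin, rested on villus-derived replicate 2, at 2.66, 406 and 3.16 CPM, and lost its call without it or any crypt-derived library (highest adjusted p = 0.349). Clca4a and Otulinl lost their calls without crypt-derived replicate 1 (adjusted p = 0.0523 and 0.0557), and Tgfbi without crypt-derived replicate 1 or 3 (highest 0.0571). The largest falls among detected genes were in AY761184, Mslnl, Tnfrsf19, Ly6c1, Slc14a1, Cmpk2, Il18rap, Slc28a3, Slc7a3, Atf3, Akap5 and Bcl2l15. AY761184, a defensin-like gene with near copies, measured 22.2, 12.4 and 15.2 CPM against 1.29, 1.47 and 0 CPM. Mslnl, mesothelin-like, measured 9.95, 11.1 and 10.9 CPM against 1.09, 1.06 and 1.20 CPM (log2 fold change -3.22, SE 0.33, adjusted p = 0.00269). Il18rap, a chain of the interleukin 18 receptor, measured 48.9, 51.2 and 32.0 CPM against 5.94, 9.06 and 8.18 CPM. Cmpk2, a mitochondrial kinase induced by interferon, measured 10.2, 11.3 and 18.9 CPM against 2.31, 2.47 and 1.82 CPM. The calls of AY761184, Mslnl, Il18rap and Cmpk2 held with any library left out, while those of Slc14a1, Slc7a3 and Akap5 did not (highest adjusted p = 0.115, 0.113 and 0.0924).

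Counting each gene once, the 40 lists held 135 genes that rose and 33 that fell. Of these 168 calls, 58 held in all 6 fits with 1 library left out, 53 of them higher and 5 lower. The 5 lower ones were Axin2, Tnfrsf19, Atf3, Nupr1 and Ly6c1.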

How the data were processed

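SMART-Seq mRNA libraries were analysed from 6 of 18 samples, with the other 12 used for reference. The deposited table gives estimated counts per gene, which need not be whole, and TPM computed by the authors. Demultiplexing with bcl2fastq 2.20, DRAGEN and the build GRCm39 (mm39) are named per the submitters' processing notes; counting settings and annotation are not given in the sources used here. Estimated counts as deposited were rounded to whole numbers. They were tested with edgeR 4.0.16 (quasi-likelihood, TMM scaling, minimum count 10, minimum total 15, R 4.3.3) over 9 libraries: both compared groups and untreated crypt cultures in Matrigel, which share the estimate of spread. Benjamini-Hochberg adjustment covered all 16699 tested genes; calls are those with adjusted p below 0.05. CPM are scaled over 18 libraries. Deposited TPM served only an alternative. The fit was tested on simulated data.

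Named genes were the 12 largest called changes per direction among detected genes with groups apart and an average of 10 CPM or more in the higher group (without bare gene models and the marker lists of other cells), the 6 largest per direction among genes not detected (marker lists kept), up to 4 genes of smallest adjusted p per list, and fixed markers. A few genes outside this rule are named to account for small counts and were chosen after their values were seen. Members, the 40 lists and tests were chosen with earlier results of these data known. RefSeq promoter windows on GRCm38.p6 matched 516 of 697 list genes. Alternatives covered scaling, filters, DESeq2 1.42.0, the libraries fitted, a replicate block, limma 3.58.1 on log2(TPM + 1), and leaving out each library.

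Library totals of 22.3 to 34.5 M counts set the counting precision. The bound for a group at 0 uses 3 counts over the group and covers counting error only. No coordinates of the files' own build were used. Some genes that the naming rule selects are not reported here.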

Additional observations from a re-analysis of the deposited data

How the results depend on the processing

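Scaling had little effect on the total of 1276 calls. It was 1305 with DESeq2's size factors in edgeR, 1327 with library totals and 1316 with TMM on detected genes. The balance of directions moved more, with 285, 437 and 290 lower genes in that order, against 327. Detected genes were 633 higher and 275 lower, 515 and 425, and 641 and 280, against 570 and 316. Without a filter, 660 genes of the not detected class were higher, against 379. Requiring 10 CPM in 3 libraries left 847 calls, 545 of them higher (64.3%, against 74.4%) and 43 of the not detected class, since fewer genes were tested. DESeq2 called 2256 genes (1588 higher, 668 lower), of which 1725 were detected (1083 higher, 642 lower). A minimum change of 1 on the log2 scale left 148 lower genes, and 517 detected ones, 137 of them lower. With only the 6 compared libraries fitted, 743 genes were called (101 lower, 86.4% higher), 415 of them detected (323 higher, 92 lower). With all 18 libraries, 2480 were called (1457 higher, 1023 lower, 58.8% higher), 1975 of them detected (981 higher, 994 lower). On TPM with limma, 611 were higher and 521 lower (54.0% higher), 487 detected genes were lower and 222 not detected ones higher. The replicate block gave 874 calls, 197 of them lower, and 584 detected, 190 of them lower. The labels do not say that a number marks the same animal, and same-numbered libraries did not all deviate together (correlations of 0.174, 0.084 and -0.167), though replicate number went with sex in both groups. A call lost under the block is therefore not described as a weaker effect. With villus-derived replicate 1 alone, assumed to vary like the other groups, 155 not detected genes were higher. Lama4, with no count in that library, then had a log2 fold change of -1.81 (edgeR adjusted p = 0.872), which its 0 fixes. Of named genes not called, Sis (-1.04) and Chga (-0.86) changed sign without villus-derived replicate 1, and Clu (-0.03) without replicate 2. Cdh1 (from -0.01 to as high as 0.11) and the endothelial marker Vwf (from 2.63 to as low as -0.04) also changed sign with 1 library left out. Leaving out 1 library gave 351 to 2050 calls, 299 to 1546 higher and 47 to 504 lower. For detected genes the range was 230 to 1312, with 178 to 825 higher and 47 to 487 lower, and for higher genes of the not detected class 121 to 721. Of 138 called named genes, 58 kept the call in all 6 of these fits. The cause of these shifts was not tested. With 3 libraries a group, the number of libraries limits precision.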
